A study of Mus musculus with 12 samples.

Results

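The 46 genes described here encode nucleolar proteins and ribosome biogenesis factors, and their RNA was followed in gamma delta T cells of the Vg4+Vd4+ type from mouse skin-draining lymph nodes. They were chosen by symbol from the 45796 genes of the deposited table as genes of known nucleolar or rRNA processing function, with earlier results of these data known, and all 46 have a row. Mice of strain C57BL/6 were either NF-kB1 deficient or wild type and had either imiquimod cream or sham cream, which gave 4 groups of 3 libraries: NF-kB1-deficient imiquimod, NF-kB1-deficient sham, wild-type imiquimod and wild-type sham. Imiquimod is a Toll-like receptor agonist that inflames mouse skin when applied to it, and NF-kB1 (p105, the precursor of p50) belongs to the NF-kB family of transcription factors. The labels give neither the age of the mice, the length of treatment, the kind of Nfkb1 allele nor the number of animals behind a library. The p-values therefore reflect differences from library to library, and these may be technical.

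Ribosomes are built in the nucleolus. RNA polymerase I transcribes a long precursor rRNA there, small nucleolar ribonucleoproteins (snoRNPs) guide its modification and first cuts, and assembly factors then form the precursors of the small 40S subunit and the large 60S subunit. Nucleolin and nucleophosmin are abundant nucleolar proteins that bind rRNA precursors and histones, and T cells are known to enlarge their nucleoli when they leave the resting state. By role, the 46 genes fall into nucleolin with the nucleophosmins, snoRNP proteins, RNA polymerase I with its cofactor Tcof1, factors of the 90S precursor and the 40S subunit, and factors of the 60S subunit.

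Some of these genes carry part of the snoRNA machinery in their own introns. In the GENCODE M21 annotation, 7 of the 46 genes (15.2%) contain a snoRNA gene on their strand, against 1.27% of 21924 protein-coding genes. The 7 hosts are Ncl, Nop58, Dkc1, Gnl3, Wdr43, Tsr1 and Nop56. Among the genes abundant enough to be tested, 5 of 10 members (50%) are hosts, against 5.27% of 1518 protein-coding genes. Ncl holds 3 snoRNA genes and Nop58 holds 4. Those named as Snora or Snord are shown, because both hosts are central to the expression results below. The sequences are from the GRCm38 genome, 5′ to 3′ on the strand of the gene, and capitals mark box C (TGATGA) and the last box D (CTGA), the motifs that name the C/D class. Snora75 lies in Ncl at chr1:86351169-86351301 (minus strand) and Snord82 in Ncl at chr1:86356261-86356330 (minus strand). Snord11 lies in Nop58 at chr1:59704790-59704873 (plus strand) and Snord70 in Nop58 at chr1:59691934-59692020 (plus strand).
Snora75: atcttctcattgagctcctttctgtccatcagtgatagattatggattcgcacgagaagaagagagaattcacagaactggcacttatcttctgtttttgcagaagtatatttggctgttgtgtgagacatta
Snord82: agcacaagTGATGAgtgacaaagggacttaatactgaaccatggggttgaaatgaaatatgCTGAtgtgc
Snord11: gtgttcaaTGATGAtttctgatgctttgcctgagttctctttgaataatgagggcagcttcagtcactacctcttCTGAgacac
Snord70: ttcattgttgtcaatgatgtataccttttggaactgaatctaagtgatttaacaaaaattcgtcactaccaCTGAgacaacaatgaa

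None of these 4 snoRNAs overlaps an exon of a coding transcript of its host. Snord82 and Snord11 hold both boxes, and Snord70 holds no TGATGA. The pair of letters TGATGA then CTGA occurs in 24.0% of all 1507 snoRNA transcripts of the annotation and in 75.5% of the 98 named Snord. The libraries were made with a kit that reads the 3' end of polyadenylated RNA, which intronic snoRNAs lack: of 21 snoRNAs in the member genes, 12 have a row, and 2 (Snord57 and Snord82) were above 0 in any library, at 3.50 or less. The host values below come from polyadenylated RNA and are not measures of these snoRNAs.

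The promoters of the called gene Ncl and of Nop58 are shown with motifs found by letter search on both strands. The search covered the 250 bases before the start used in the RefSeq promoter set (GRCm38.p6), which can lie inside the gene. Motifs searched were the E-box CACGTG, bound by Myc and other basic helix-loop-helix factors, the GC box GGGCGG or CCGCCC, bound by Sp factors, and CCGGAAG or CTTCCGG, bound by ETS factors. The window of Ncl is chr1:86359456-86359705 (minus strand), that of Nop58 is chr1:59684756-59685005 (plus strand), and capitals mark GC boxes.
Ncl: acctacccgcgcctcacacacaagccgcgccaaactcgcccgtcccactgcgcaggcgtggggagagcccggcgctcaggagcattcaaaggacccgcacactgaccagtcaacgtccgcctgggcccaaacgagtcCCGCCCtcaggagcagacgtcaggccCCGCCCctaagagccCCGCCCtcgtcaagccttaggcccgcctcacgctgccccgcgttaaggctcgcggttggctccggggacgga
Nop58: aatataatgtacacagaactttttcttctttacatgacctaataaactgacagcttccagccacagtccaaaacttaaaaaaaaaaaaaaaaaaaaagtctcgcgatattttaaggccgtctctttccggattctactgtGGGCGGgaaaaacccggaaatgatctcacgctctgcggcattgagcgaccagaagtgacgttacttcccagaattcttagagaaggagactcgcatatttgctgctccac

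The 3 GC boxes of Ncl begin 113, 87 and 72 bases before its start in that set, and the one of Nop58 begins 110 bases before. The RefSeq span of the Nop58 gene begins at 59684961, so the end of its window lies inside the gene, as do windows of some other members. Neither window holds an E-box or the ETS letters. Of the 46 members 40 had a promoter in the table. The E-box was in 2 of these 40 (5%), against 6.86% of 27025 genes and 11.6% of 1262 tested genes. The GC box was in 24 of 40 (60%), against 35.4% of all genes and 68.8% of tested genes. ETS letters were in 10 of 40 (25%), against 7.83% of all genes and 17.0% of tested genes. The members with an E-box are Imp4, a factor of the U3 snoRNP, and Nop2, an rRNA methyltransferase of the 60S pathway. The 60 bases around each E-box (chr1:34439681-34439740 for Imp4 and chr6:125131796-125131855 for Nop2, both plus strand) are shown with the motifs in capitals. In Nop2 the second motif is the ETS sequence.
Imp4: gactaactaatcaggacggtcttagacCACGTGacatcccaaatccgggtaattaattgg
Nop2: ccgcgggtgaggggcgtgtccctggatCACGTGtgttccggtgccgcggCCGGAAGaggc

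The libraries were shallow. Values are given as normalized values, which are the authors' normalized read counts taken back from log2 to the linear scale, and a value of 0 is described as listed at 0. From the steps between low values, a library held an estimated 20497 to 69446 reads on genes, the lowest being wild-type imiquimod replicate 3, which also had the highest summed value (40618, against 31878 to 37487 in the other 11 libraries). The wild-type imiquimod libraries stood apart from the other 9 on the leading principal component (21.3% of the variance over 1571 tested genes), with scores of 34.6, 20.4 and 59.4 against scores below 0. For 5 libraries 1 read had a value under 1, so that a listed 0 may stand for 1 read there, and Gapdh, a gene that every cell uses, was listed at 0 in 5 libraries. Nfkb1 stood at 5.41, 6.64 and 5.84 in NF-kB1-deficient imiquimod, at 8.82, 1.09 and 2.52 in NF-kB1-deficient sham, at 7.34, 21.01 and 0 in wild-type imiquimod and at 6.71, 4.38 and 1.24 in wild-type sham. The genotypes overlap there, and a 3' tag can lie outside a changed part of the gene, so these values check nothing about the labels. Of the gamma delta T markers, Tcrd and Tcrg-C2 were above 0 in all 12 libraries, while Trdc, Tcrg-C1, Tcrg-C4, Tcrg-V4 and Il17a were listed at 0 throughout. Tcrb, the T cell receptor beta locus, was above 0 in all 12 libraries as well. Of the other alpha beta T markers, Tcra was above 0 in 11 libraries, Cd8b1 in 8 and Cd8a in 3, with Trac, Trbc1, Trbc2, Cd4 and Foxp3 listed at 0.

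At this depth 45 of the 46 genes were above 0 in at least 1 library, and Bop1 was listed at 0 in all 12. To be tested a gene had to average at least 5 over the 12 libraries, and 10 members did: Ncl, Npm1, Nop58, Ddx21, Dkc1, Rrs1, Gnl3, Wdr43, Tcof1 and Heatr1. Another 15 were above 0 in 6 or more libraries, with means between 2.49 and 4.98, and 20 were above 0 in 1 to 5 libraries. A gene that is high in 1 group can pass the filter through that group alone: over the 9 libraries outside wild-type imiquimod, 8 of the 10 still averaged at least 5, and Rrs1 averaged 4.51 and Heatr1 3.07. The counts given below over the tested members therefore describe the abundant members, not all 46. Where a comparison uses wild-type imiquimod, its counts and medians include Rrs1 and Heatr1, which that group itself let in.

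**Figure D1:**
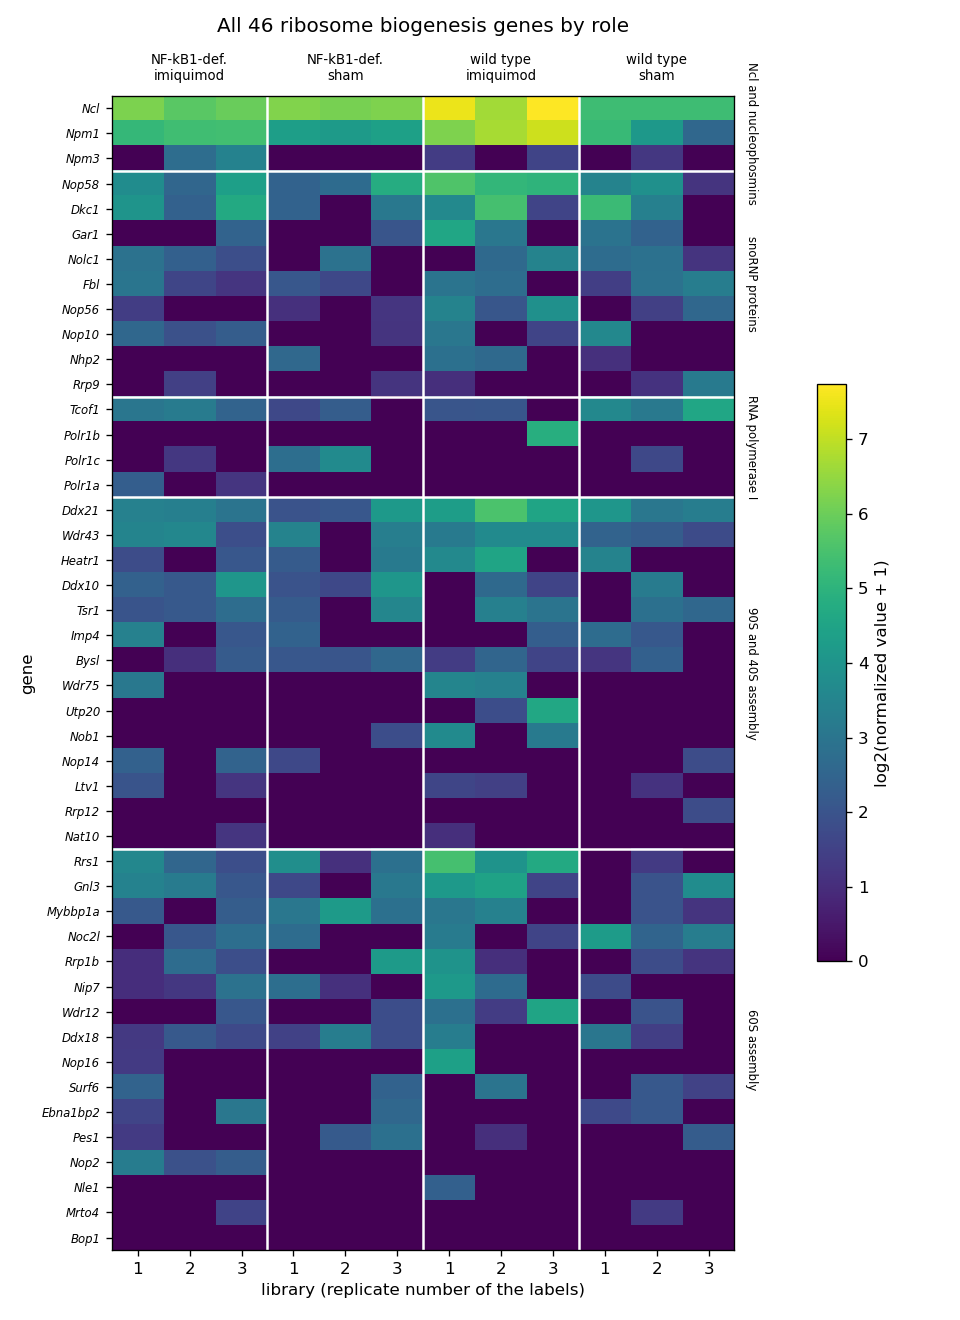
Heat map of log2(normalized value + 1) for all 46 genes (down the page, by role) in the 12 libraries (across, by group); the darkest cells are listed at 0. Ncl, Npm1, Nop58 and Ddx21 are above 0 in every library and brightest in wild-type imiquimod, and every other gene is listed at 0 in at least 1 library.

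Summed over the 46 genes, the normalized value was 265, 187 and 266 in NF-kB1-deficient imiquimod and 191, 158 and 262 in NF-kB1-deficient sham. It was 585, 485 and 573 in wild-type imiquimod and 227, 172 and 141 in wild-type sham. All 3 wild-type imiquimod libraries lay above the other 9, which overlap each other across groups. As a share of the library's summed value these genes took 0.583% to 0.803% in NF-kB1-deficient imiquimod, 0.496% to 0.767% in NF-kB1-deficient sham, 1.29% to 1.59% in wild-type imiquimod and 0.407% to 0.666% in wild-type sham. Ncl and Npm1 make up much of the sum. Without them it was 158, 93.5 and 164 in NF-kB1-deficient imiquimod, 95.7, 70.7 and 167 in NF-kB1-deficient sham, 330, 281 and 220 in wild-type imiquimod and 152, 116 and 97.4 in wild-type sham, with the wild-type imiquimod libraries again above the rest. In such bulk libraries more cells of one kind and more RNA per cell cannot be told apart.

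By role, nucleolin with the nucleophosmins summed to 107, 99.5 and 112 in NF-kB1-deficient imiquimod, 94.8, 87.6 and 94.4 in NF-kB1-deficient sham, 257, 204 and 356 in wild-type imiquimod and 75.5, 57.2 and 44.1 in wild-type sham. Here no pair of groups overlaps. The snoRNP proteins summed to 47.7, 20.02 and 57.0 in NF-kB1-deficient imiquimod, 18.4, 14.2 and 40.9 in NF-kB1-deficient sham, 114, 104 and 59.4 in wild-type imiquimod and 73.7, 43.3 and 24.2 in wild-type sham, and wild-type imiquimod replicate 3 fell inside the wild-type sham range. RNA polymerase I with Tcof1 stayed low, at 5.84 to 11.3 in NF-kB1-deficient imiquimod, 0 to 15.8 in NF-kB1-deficient sham, 3.14 to 27.7 in wild-type imiquimod and 10.01 to 23.0 in wild-type sham. The groups overlap for this role. Factors of the 90S precursor and 40S subunit ran from 28.0 to 53.8 in NF-kB1-deficient imiquimod, 8.58 to 68.0 in NF-kB1-deficient sham, 65.6 to 112 in wild-type imiquimod and 21.02 to 37.1 in wild-type sham. For 60S factors the ranges were 29.8 to 45.7 in NF-kB1-deficient imiquimod, 32.0 to 58.5 in NF-kB1-deficient sham, 50.5 to 146 in wild-type imiquimod and 27.3 to 29.8 in wild-type sham. In both subunit pathways wild-type imiquimod and wild-type sham do not overlap, while NF-kB1-deficient imiquimod lies within or across the range of NF-kB1-deficient sham.

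**Figure D2:**
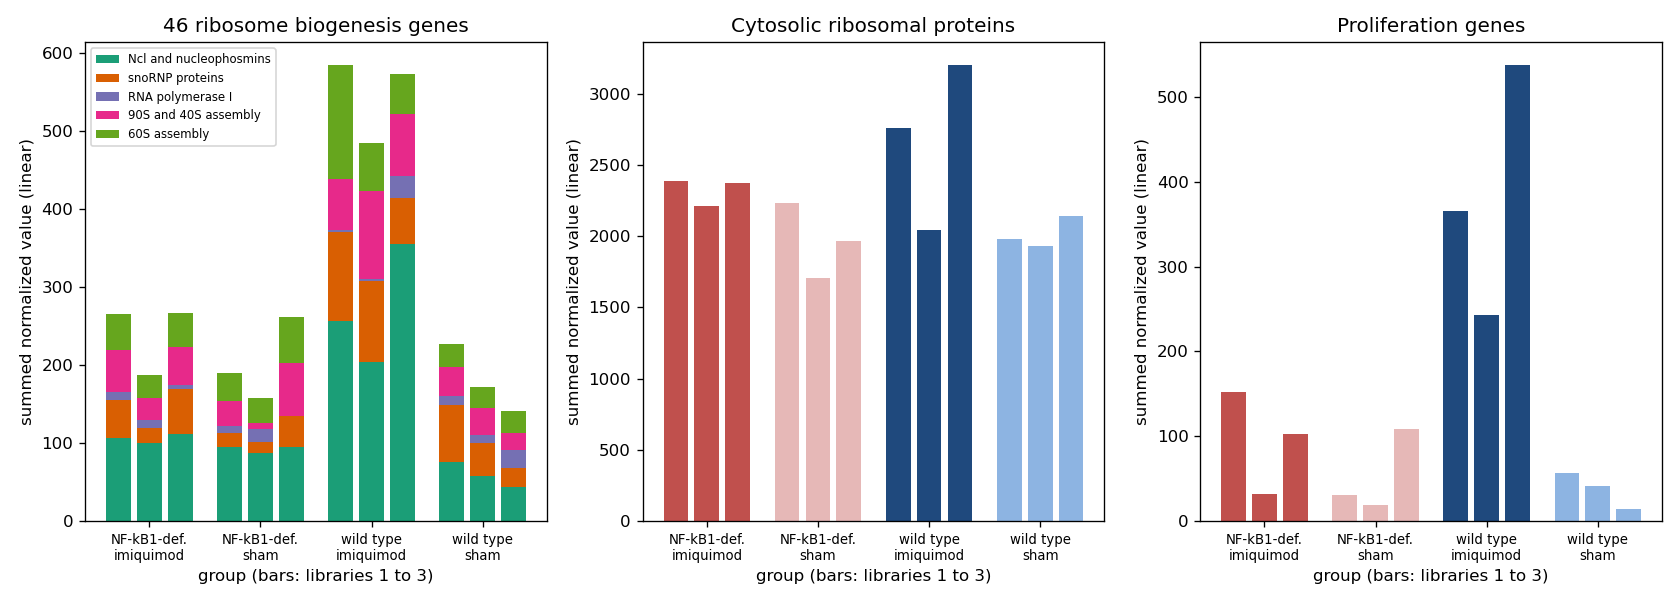
Summed normalized value (linear, bars from 0) per library for the 46 ribosome biogenesis genes stacked by role, for cytosolic ribosomal proteins and for proliferation genes; the groups run from left to right as NF-kB1-deficient imiquimod, NF-kB1-deficient sham, wild-type imiquimod and wild-type sham, with 3 bars each. The ribosome biogenesis bars of wild-type imiquimod reach 485 to 585 and all others stay at 266 or below.

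Imiquimod against sham in wild-type cells asks which of these genes respond to the treatment with NF-kB1 present. Ncl, Npm1 and Rrs1 rose. They were the only 3 of the 10 tested members past the threshold (limma on log2 values, Benjamini-Hochberg adjusted p under 0.05 over all 1571 tested genes), and no member fell past it. Over all tested genes 3.25% were called, 1.65% as higher; these were 51 genes, and 23 to 72 when single libraries were left out. The 10 members had a median log2 fold change of 1.53, against -0.07 over all tested genes, and 9 of 10 were positive, against 48.1% of all. Rrs1 and Heatr1 are in these counts and passed the filter only through wild-type imiquimod, so they were bound to lean this way. The wild-type imiquimod and sham values did not overlap for 7 members: 6 were higher (Ncl, Npm1, Rrs1, Nop58, Ddx21 and Wdr43), against 10.7% of all tested genes, and 1 was lower (Tcof1), against 10.8%. Tcof1 passed the filter only through wild-type sham, so it was bound to lean lower.

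Ncl (nucleolin; Entrez 17975, chromosome 1, 86344719 to 86359455 in GRCm38.p6) stood at 72.4, 53.4 and 61.1 in NF-kB1-deficient imiquimod and at 75.7, 70.1 and 74.2 in NF-kB1-deficient sham. Its values were 180, 100.2 and 212 in wild-type imiquimod and 39.7, 39.3 and 39.1 in wild-type sham. The wild-type sham libraries are nearly equal and the lowest of the 12, the wild-type imiquimod libraries are the highest, and the 6 NF-kB1-deficient libraries lie between them. Between the wild-type groups Ncl averaged 164 ± 57.6 under imiquimod and 39.4 ± 0.296 under sham (SD, n = 3 each). The log2 difference was 1.96 ± 0.36 (SE; limma adjusted p = 0.000101). With the shallowest library, wild-type imiquimod replicate 3, left out it was 1.748 (limma adjusted p = 0.00285). With the spread neither moderated along a trend nor robustly, the limma adjusted p was 0.140, and the call was lost.

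Npm1 (nucleophosmin; Entrez 18148, chromosome 11, 33152498 to 33164142) had 34.6, 40.2 and 41.2 in NF-kB1-deficient imiquimod, 19.1, 17.5 and 20.1 in NF-kB1-deficient sham, 74.9, 104 and 142 in wild-type imiquimod and 35.8, 16.6 and 4.97 in wild-type sham. Wild-type imiquimod was again above all others, and the wild-type sham libraries were spread widely. The wild-type means were 107 ± 33.4 under imiquimod and 19.1 ± 15.6 under sham (SD, n = 3 each), and the log2 difference was 2.73 ± 0.52 (SE; limma adjusted p = 0.000143). This call too was lost without trend and robust moderation (limma adjusted p = 0.0883). Npm1 has processed copies elsewhere in the genome, and how reads that fit several copies were counted is not given in the sources used here, so its level is uncertain to that extent. Its relative Npm3 was above 0 in 5 libraries, at 5.82 and 9.73 in NF-kB1-deficient imiquimod replicates 2 and 3 and at 1.38 to 1.98 in the other 3, and a pseudogene row, Npm3-ps1, was also above 0 in 5 libraries.

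Rrs1 (Entrez 59014, chromosome 1, 9545408 to 9547455), a 60S factor whose yeast counterpart helps to bring the 5S particle into the precursor, had 11.02, 4.89 and 2.59 in NF-kB1-deficient imiquimod and 13.2, 1.09 and 6.29 in NF-kB1-deficient sham. It had 42.5, 14.7 and 24.8 in wild-type imiquimod, against 0, 1.46 and 0 in wild-type sham. Every wild-type imiquimod library exceeded every other library, and wild-type sham was at or next to 0. The log2 fold change in wild-type cells was 4.27 ± 1.13 (SE; limma adjusted p = 0.0145). Its size depends on the pseudocount, being 6.65 with 0.1 (limma adjusted p = 0.0589, no longer called) and 1.77 with 10 (0.00525). The call was also lost with no filter on low values (limma adjusted p = 0.103), in the fit on the 6 wild-type libraries (0.0543), without wild-type imiquimod replicate 1 (limma adjusted p = 0.0894), without wild-type sham replicate 1 (0.0512) and without wild-type sham replicate 3 (0.0545).

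Among the snoRNP proteins, Nop58, a scaffold of box C/D snoRNPs, had 12.5, 4.89 and 19.8 in NF-kB1-deficient imiquimod, 4.41, 5.47 and 26.4 in NF-kB1-deficient sham, 47.7, 33.7 and 31.7 in wild-type imiquimod and 10.06, 13.7 and 1.24 in wild-type sham. The wild-type imiquimod libraries are the 3 highest, next to NF-kB1-deficient sham replicate 3. Its wild-type log2 fold change of 2.42 ± 0.87 missed the threshold (SE; limma adjusted p = 0.103) and passed it with a pseudocount of 10 (1.43, adjusted p = 0.0450). Dkc1, the pseudouridine synthase of box H/ACA snoRNPs, had 15.02, 4.31 and 24.8 in NF-kB1-deficient imiquimod, 4.41, 0 and 7.55 in NF-kB1-deficient sham, 11.5, 43.2 and 1.98 in wild-type imiquimod and 37.4, 9.27 and 0 in wild-type sham. Libraries of one group differ here as much as groups do. The wild-type log2 fold change was 0.69 ± 1.11 (SE; limma adjusted p = 0.775), and it changed sign without wild-type imiquimod replicate 2 (-0.26) or wild-type sham replicate 3 (-0.75).

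Under the filter, the snoRNP protein Gar1 of the H/ACA class was at 23.1 and 7.37 in wild-type imiquimod replicates 1 and 2 and at 0 in replicate 3, against 6.71, 4.39 and 0 in wild-type sham. Nop56, the partner of Nop58, was at 9.96, 3.16 and 13.9 in wild-type imiquimod and at 0, 1.78 and 4.97 in wild-type sham, with 1.63 or less in all 6 NF-kB1-deficient libraries. The methyltransferase Fbl (0 to 8.69), the snoRNP chaperone Nolc1 (0 to 9.90) and the H/ACA protein Nop10 (0 to 11.2) were listed at 0 in 2, 3 and 5 of the 12 libraries, with no group standing apart. Nhp2, also of the H/ACA class, was above 0 in 4 libraries and Rrp9, of the U3 snoRNP, in 5.

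For RNA polymerase I the abundant member was Tcof1 (treacle, a cofactor of the polymerase). It had 7.26, 8.38 and 4.54 in NF-kB1-deficient imiquimod, 2.21, 3.83 and 0 in NF-kB1-deficient sham, 3.14, 3.16 and 0 in wild-type imiquimod and 11.2, 7.81 and 23.0 in wild-type sham. Wild-type imiquimod lies wholly below wild-type sham, which is opposite to the other 9 tested members, and NF-kB1-deficient imiquimod lies wholly above NF-kB1-deficient sham. Neither difference passed the test: the log2 fold change was -2.41 ± 1.19 in wild-type cells (SE; limma adjusted p = 0.234). The catalytic subunits were barely detected. Polr1a, the largest, was at 4.01 and 1.30 in NF-kB1-deficient imiquimod replicates 1 and 3 and at 0 elsewhere, Polr1b was at 27.7 in wild-type imiquimod replicate 3 alone, and Polr1c, shared with RNA polymerase III, was above 0 in 4 libraries (1.40 to 11.996).

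Factors of the 90S precursor and the 40S subunit were led by Ddx21, an RNA helicase of polymerase I transcription and rRNA processing. It had 9.51, 9.08 and 6.81 in NF-kB1-deficient imiquimod, 2.94, 3.28 and 17.0 in NF-kB1-deficient sham, 18.9, 45.3 and 21.8 in wild-type imiquimod and 15.7, 7.32 and 8.69 in wild-type sham. The wild-type imiquimod libraries were the 3 highest, yet the log2 fold change over wild-type sham, 1.32 ± 0.91, did not pass (SE; limma adjusted p = 0.441). Wdr43, of the UTP-A complex, had 10.2, 10.9 and 2.59 in NF-kB1-deficient imiquimod, 10.01, 0 and 8.81 in NF-kB1-deficient sham, 7.99, 11.9 and 11.9 in wild-type imiquimod and 4.47, 3.72 and 2.39 in wild-type sham, with a log2 change in wild-type cells of 1.36 ± 1.12 (SE; limma adjusted p = 0.521). Heatr1, of the same complex, had 2.504, 0 and 3.24 in NF-kB1-deficient imiquimod, 3.68, 0 and 8.18 in NF-kB1-deficient sham, 11.5, 22.1 and 0 in wild-type imiquimod and 10.06, 0 and 0 in wild-type sham (log2 fold change 1.57 ± 1.44, SE; limma adjusted p = 0.573). For Heatr1 every group holds a library at 0, so its mean rests on 1 or 2 libraries a group.

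Below the filter in the same pathway, the helicase Ddx10 reached 15.6 in NF-kB1-deficient imiquimod replicate 3 and 15.7 in NF-kB1-deficient sham replicate 3, and stayed at 8.30 or less in the 6 wild-type libraries. Tsr1, which binds late 40S precursors, ran from 0 to 10.7, Bysl, a 40S maturation factor, from 0 to 5.03 and Imp4 from 0 to 9.51, without a group apart from the rest. Wdr75 was above 0 in NF-kB1-deficient imiquimod replicate 1 (7.51) and wild-type imiquimod replicates 1 and 2 (10.5 and 9.47), and in no sham library. The processome protein Utp20 was found only in wild-type imiquimod replicates 2 and 3 (2.58 and 23.8). Nob1, the nuclease that makes the end of 18S rRNA, was at 12.1 and 7.92 in wild-type imiquimod replicates 1 and 3 and at 2.52 in NF-kB1-deficient sham replicate 3. The remaining Nop14, Ltv1, Rrp12 and Nat10 stood at 4.54 or less in every library.

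Of the 60S factors other than Rrs1, Gnl3 (nucleostemin, a GTPase) had 9.68, 8.38 and 3.24 in NF-kB1-deficient imiquimod, 2.21, 0 and 7.55 in NF-kB1-deficient sham, 16.8, 21.1 and 1.98 in wild-type imiquimod and 0, 2.93 and 12.4 in wild-type sham. The groups overlap, and the wild-type log2 fold change was 1.49 ± 1.18 (SE; limma adjusted p = 0.511). Mybbp1a, Noc2l, Rrp1b, Nip7, Wdr12 and Ddx18 were above 0 in 6 to 9 libraries, with highest values of 8.76 to 21.8. The highest library of each fell in 3 different groups: NF-kB1-deficient sham for Mybbp1a, Rrp1b and Ddx18, wild-type imiquimod for Nip7 and Wdr12, and wild-type sham for Noc2l. Nop16 was at 19.9 in wild-type imiquimod replicate 1 and at 1.502 in NF-kB1-deficient imiquimod replicate 1. Nop2, one of the members with an E-box, was above 0 in all 3 NF-kB1-deficient imiquimod libraries (8.51, 2.79 and 3.89) and listed at 0 in the other 9. Surf6, Ebna1bp2, Pes1, Nle1 and Mrto4 reached 7.36 at most; Pes1 and Wdr12 form a complex with Bop1, the member listed at 0.

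**Figure D3:**
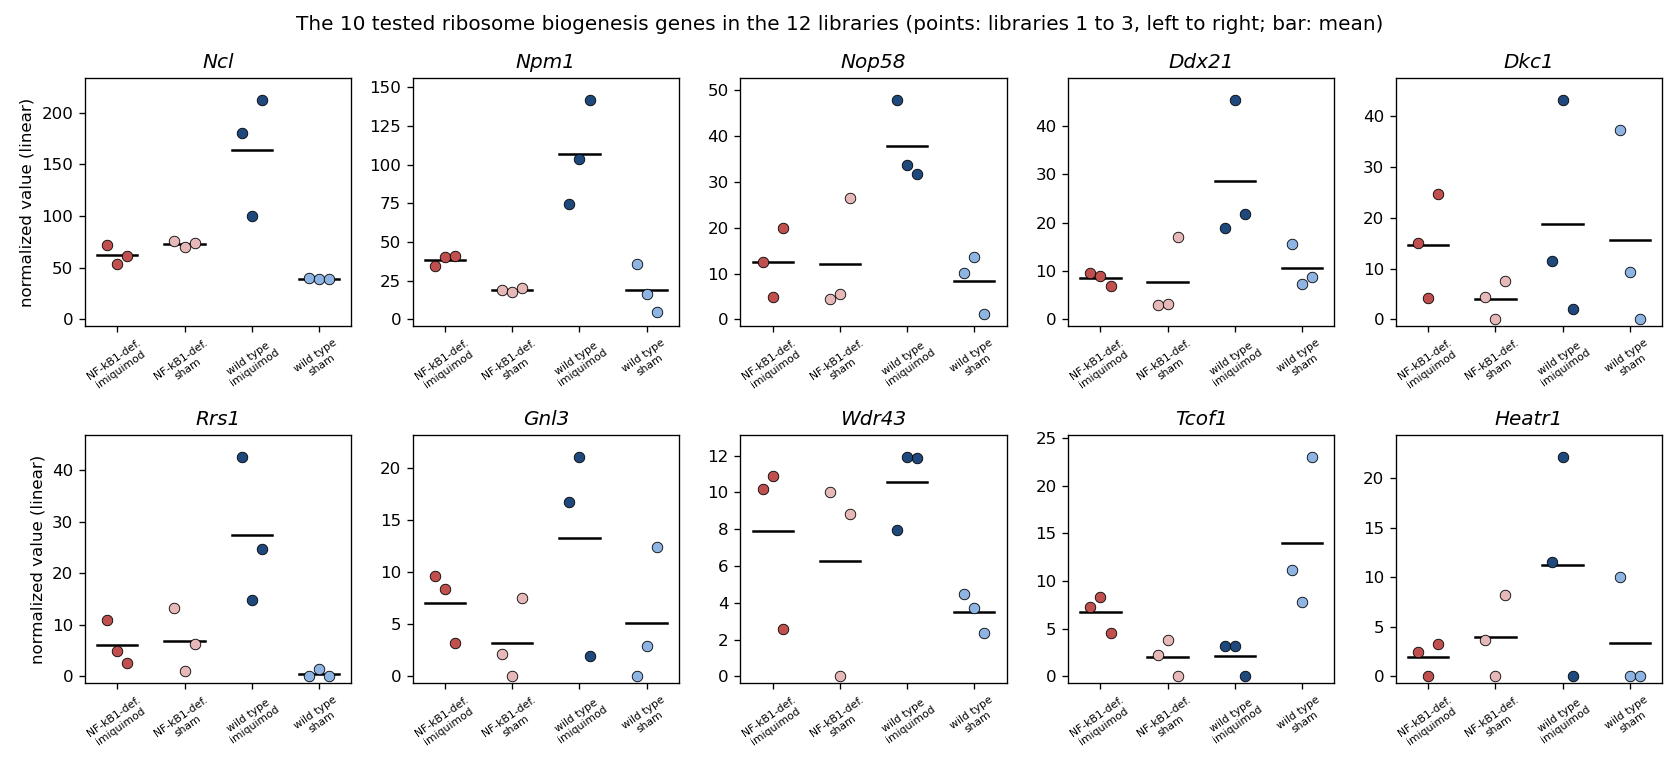
Normalized value (linear) of the 10 tested genes in each library; points are libraries 1 to 3 of a group from left to right, bars are group means, and the groups run NF-kB1-deficient imiquimod, NF-kB1-deficient sham, wild-type imiquimod, wild-type sham. For Ncl, Npm1 and Rrs1 all 3 wild-type imiquimod points lie above every other point, and for Tcof1 the wild-type sham mean is the highest.

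The mean of wild-type imiquimod was the highest of the 4 group means for 23 of the 45 detected members (51.1%), against 27.6% of all detected genes. NF-kB1-deficient imiquimod was highest for 11 (against 24.5% of all detected genes), NF-kB1-deficient sham for 6 (24.6%) and wild-type sham for 5 (23.3%). Among the 10 tested members wild-type imiquimod was highest for 9, against 40.8% of all tested genes. The 9 include Rrs1 and Heatr1, which that group let through the filter. Among the 35 detected members that were under the filter, wild-type imiquimod was highest for 14 (40%, against 25.1% of all genes under it) and NF-kB1-deficient imiquimod for 11 (31.4%, against 26.3%).

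The same treatment in NF-kB1-deficient cells asks whether these genes respond without NF-kB1. None of the 10 members was called, and limma called 0 of the 1571 genes (0%), while 53 genes (3.37%), none of them a member, had an unadjusted p below 0.05. Npm1, at 34.6 to 41.2 in NF-kB1-deficient imiquimod against 17.5 to 20.1 in NF-kB1-deficient sham, did not overlap between these groups. Its log2 fold change of 0.99 ± 0.52 had an unadjusted limma p of 0.0597 and an adjusted p of 0.996. Tcof1 did not overlap either (log2 fold change 1.60 ± 1.19, SE; limma adjusted p = 0.996), so that 2 of 10 members were higher without overlap, against 6.11% of all tested genes, and 0 lower, against 5.6%. Ncl moved little, at 62.3 ± 9.53 in NF-kB1-deficient imiquimod and 73.3 ± 2.91 in NF-kB1-deficient sham (SD, n = 3 each), and the 95% interval of its log2 fold change, -0.96 to 0.47, excludes the 1.96 seen in wild-type cells. Rrs1 (0.08 ± 1.13) and Nop58 (0.26 ± 0.87) had fold changes near 0 with wide errors, and both changed sign when single libraries were left out. The median over the 10 members was 0.60, against 0.14 over all tested genes.

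Whether the response to imiquimod differs between the genotypes was tested as the interaction, the NF-kB1-deficient response minus the wild-type response. Ncl passed, with an interaction of -2.21 ± 0.51 on the log2 scale (SE; 95% interval -3.22 to -1.20; limma adjusted p = 0.0110), and no other member did. Over all tested genes 0.446% were called, 0.255% as lower. The call of Ncl was lost without NF-kB1-deficient imiquimod replicate 2 (limma adjusted p = 0.0569), NF-kB1-deficient sham replicate 3 (0.0604) or wild-type imiquimod replicate 3 (0.0776), and without trend and robust moderation (0.447). Npm1 (-1.74 ± 0.74, adjusted p = 0.337), Rrs1 (-4.19 ± 1.60, adjusted p = 0.290) and Nop58 (-2.15 ± 1.23, adjusted p = 0.550) had negative values that limma did not call, and Tcof1 had a positive one (4.01 ± 1.68, adjusted p = 0.337). For these 4 genes a difference between genotypes in the response did not pass the adjustment over all tested genes, and it is not excluded either. Before adjustment the limma p was 0.00979 for Rrs1, 0.0181 for Tcof1, 0.0197 for Npm1 and 0.0813 for Nop58. With Ncl, 4 of 10 members had an unadjusted limma p under 0.05, against 10.8% of all tested genes. Rrs1 and Tcof1 are among the 4, and each passed the filter only through a single group (wild-type imiquimod and wild-type sham). The median over the members was -1.29, against 0.24 over all tested genes, and 2 of 10 were positive, against 55% of all. No member was called higher, against 0.191% of all tested genes.

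**Figure D4:**
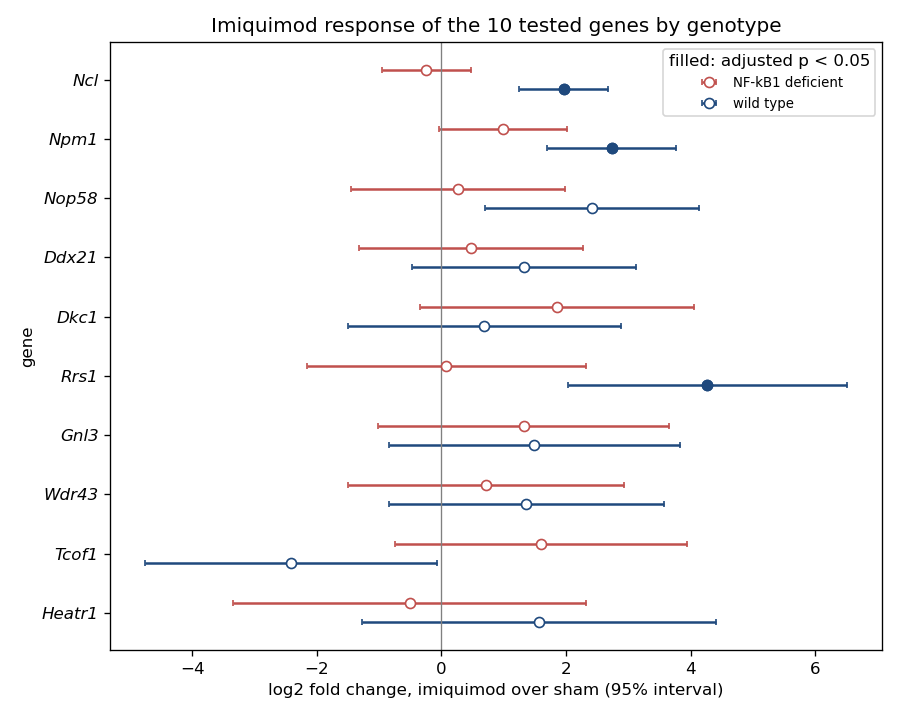
Log2 fold change of imiquimod over sham with its 95% interval for the 10 tested genes, in NF-kB1-deficient cells (red, upper of each pair) and in wild-type cells (blue, lower); filled points passed an adjusted p of 0.05. Filled points are Ncl, Npm1 and Rrs1 in wild-type cells, and the intervals of Ncl in the 2 genotypes do not overlap.

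Under imiquimod, NF-kB1-deficient cells were set against wild-type cells. Ncl fell to 62.3 ± 9.53 in NF-kB1-deficient imiquimod, against 164 ± 57.6 in wild-type imiquimod (SD, n = 3 each), with a log2 difference of -1.33 ± 0.36 (SE; limma adjusted p = 0.0290). It was the 1 member called, where 1.78% of all tested genes were called and 0.509% as lower (28 genes, and 4 to 42 when single libraries were left out). The call is fragile: it was lost with library totals made equal (-1.11, limma adjusted p = 0.0719), and without any 1 of the 3 NF-kB1-deficient imiquimod libraries (0.0744 to 0.319), wild-type imiquimod replicate 1 (0.133) or replicate 3 (0.129). Npm1 (-1.40 ± 0.52, limma adjusted p = 0.163), Nop58 (-1.69 ± 0.87, 0.355), Rrs1 (-2.04 ± 1.13, 0.411) and Ddx21 (-1.55 ± 0.91, 0.445) did not overlap between the genotypes, being lower in all 3 NF-kB1-deficient libraries, and did not pass. With Ncl, 5 of 10 members were lower without overlap, against 10.3% of all tested genes. Tcof1 was higher without overlap (1.55 ± 1.19, adjusted p = 0.602), against 10.8%. The median over the 10 members was -1.36, against 0.13 over all tested genes, and 2 of 10 were positive, against 53.7% of all. This comparison and the wild-type response share the wild-type imiquimod libraries.

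Under sham cream, none of these genes was called between NF-kB1-deficient and wild-type cells, and limma called 0 of 1571 genes (0%), with 96 (6.11%) at an unadjusted p under 0.05. Ncl had 75.7, 70.1 and 74.2 in NF-kB1-deficient sham and 39.7, 39.3 and 39.1 in wild-type sham. The groups are far apart relative to the spread inside each, yet limma, which takes much of a gene's spread from genes of like mean, gave a log2 fold change of 0.88 ± 0.36 with an unadjusted p of 0.0160 and an adjusted p of 0.809. Ncl was the 1 member higher without overlap (4.71% of all tested genes), and Tcof1 the 1 member lower without overlap (4.65%), with a log2 difference of -2.46 ± 1.19 (SE; limma adjusted p = 0.809). Tcof1 passed the filter only through wild-type sham, so it was bound to lean lower. Rrs1 was above 0 in all 3 NF-kB1-deficient sham libraries (13.2, 1.09 and 6.29) and in 1 of 3 wild-type sham libraries (1.46), a log2 fold change of 2.15 ± 1.13 (limma adjusted p = 0.877). The median over the members was 0.22, against -0.02 over all tested genes, and 6 of 10 were positive, against 48.6% of all.

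A further list of 156 ribosome biogenesis genes outside the 46 was counted beside them. Of these 146 had a row, 135 were above 0 in some library and 19 were tested, and none was called in any of the 5 comparisons. For wild-type imiquimod against wild-type sham 15 of the 19 were positive, against 48.1% of all tested genes. The median log2 fold change was 0.73, against -0.07 over all. Some of the 19, Exosc8 among them, passed the filter only through wild-type imiquimod and were bound to lean this way. Only 2 of the 19 had an unadjusted limma p under 0.05, where 19.9% of all tested genes did. The lowest p-values belonged to Nol7, a nucleolar protein, with means of 14.6 under imiquimod and 1.30 under sham (log2 fold change 3.08, limma adjusted p = 0.103), to Exosc8, of the RNA exosome, with a mean of 16.1 under imiquimod and at 0 in the 3 libraries of wild-type sham (adjusted p = 0.115), and to Mdn1, the 60S remodelling ATPase, with 21.7 and 7.31 (1.89, adjusted p = 0.279). Summed over the list the values were 317, 247 and 301 in NF-kB1-deficient imiquimod, 299, 193 and 269 in NF-kB1-deficient sham, 552, 431 and 482 in wild-type imiquimod and 350, 290 and 228 in wild-type sham. As with the 46 genes, the wild-type imiquimod libraries were the 3 highest.

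The products of the pathway can be set beside it. Of the cytosolic ribosomal protein genes 67 were tested and none was called. In wild-type cells 50 of 67 had positive fold changes under imiquimod, against 48.1% of all tested genes. The median log2 fold change was 0.39, against -0.07 over all tested genes. In NF-kB1-deficient cells 50 of 67 were positive as well, against 56% of all, with a median of 0.35, against 0.14 over all. Their sums were 2387, 2210 and 2370 in NF-kB1-deficient imiquimod, 2234, 1708 and 1964 in NF-kB1-deficient sham, 2758, 2045 and 3200 in wild-type imiquimod and 1982, 1933 and 2139 in wild-type sham, so that the wild-type groups overlap. Myc, known as an activator of many of these genes, was listed at 0 in 9 libraries and stood at 1.30, 1.26 and 7.45 in NF-kB1-deficient imiquimod replicate 3, NF-kB1-deficient sham replicate 3 and wild-type sham replicate 3, so its level cannot be compared. Its network partners Max, Mnt and Mga were tested, and none was called.

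Other measures moved with the wild-type imiquimod libraries. Proliferation genes summed to 152, 31.2 and 102 in NF-kB1-deficient imiquimod, 30.9, 18.8 and 108 in NF-kB1-deficient sham, 366, 243 and 537 in wild-type imiquimod and 56.0, 41.3 and 14.3 in wild-type sham. For wild-type imiquimod against sham all 12 tested proliferation genes were positive, against 48.1% of all tested genes, and 4 were called as higher, against 1.65%. Among the 4 were H2afz, a histone variant (2.497 ± 0.65, limma adjusted p = 0.0136), and Top2a, a DNA topoisomerase (4.01 ± 1.155, adjusted p = 0.0310). Most of the 12, Top2a among them, passed the filter only through wild-type imiquimod, so they were bound to lean this way. Tcrd, the T cell receptor delta locus, was at 62.8, 53.5 and 58.9 in NF-kB1-deficient imiquimod, 72.8, 66.1 and 40.3 in NF-kB1-deficient sham, 14.1, 30.5 and 19.8 in wild-type imiquimod and 65.8, 68.7 and 76.8 in wild-type sham, lowest in the wild-type imiquimod libraries. Other gamma delta markers did not all follow Tcrd. By group mean Tcrg-C2, Maf and Cd163l1 were not lowest in wild-type imiquimod, while Cd3d, Cd3e and Cd3g were. With Tcrd, the 17 gamma delta markers in the table summed to 62.4 to 121 in wild-type imiquimod and 103 to 145 in wild-type sham, which overlap. The 7 plasma cell markers in the table summed to 2.25 to 21.7 in NF-kB1-deficient imiquimod, 0 in every NF-kB1-deficient sham library, 6.93 to 21.5 in wild-type imiquimod and 0 to 6.21 in wild-type sham, at most 0.0655% of a library. Their defining genes Igkc and Ighg1 were listed at 0 in all 12 libraries, and Jchain and Mzb1 in all but NF-kB1-deficient imiquimod replicate 3. Prdm1 and Xbp1 made up most of the wild-type imiquimod sums. Prdm1 stood at 6.81, 8.42 and 6.93 there, at 5.51 in NF-kB1-deficient imiquimod replicate 3 and at 0 elsewhere. Xbp1 stood at 14.7, 6.32 and 0 in wild-type imiquimod. It reached 4.89 in NF-kB1-deficient imiquimod and 2.93 in wild-type sham, and was at 0 in NF-kB1-deficient sham. Of 8 B cell markers 7 were listed at 0 throughout. The myeloid markers, 10 of 16 listed at 0 throughout, took at most 0.158% of a library. Their sums were lowest in wild-type imiquimod (1.05 to 6.93, against 11.6 to 26.8 in wild-type sham). They were 15.02 to 49.9 in NF-kB1-deficient imiquimod and 16.4 to 50.2 in NF-kB1-deficient sham. On average Ly6c2 (mean 13.98 over the 12 libraries) and Ccr7 (5.84) made up most of these sums. Lyz2, Csf1r and Cd14 were among those listed at 0. The sums therefore mainly follow Ly6c2 and Ccr7, and myeloid cell content was not tested. The part of depth, of these markers and of the proliferation genes in the results above was not tested.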

How the data were processed

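Per the labels' protocols, the 12 libraries were prepared with QuantSeq 3' mRNA-Seq (FWD), which counts 1 fragment near the end of each transcript. The submitters' processing notes name mm10 as the build; how reads were aligned, counted and normalized is not given in the sources used here. Log2 values of normalized read counts were deposited by the authors and were taken back to the linear scale (0 columns were left out, and 0 of 66 library pairs held identical values). Steps between low values put 1 read at 0.488 to 1.98. Only 71.3% to 80.3% of values under 20 reads came within 0.01 read of whole reads, so reads were not recovered and no count test was run.

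limma 3.58.1 in R 4.3.3 tested log2(value + 1), so fold changes of low genes are understated. Genes with a mean of at least 5 over the 12 libraries entered (1571), in 1 fit with 4 group coefficients and eBayes with trend and robust (8 residual degrees of freedom, median prior 145). The Benjamini-Hochberg adjustment ran over all 1571 genes in each of 5 comparisons, with calls at an adjusted p under 0.05. Sums over members carry no test. The steps were tested on simulated counts.

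The members and lists were chosen with earlier results of these data known. Every member with a mean of at least 5 is named with all its values, members above 0 in at least 6 libraries with values or ranges, and the others to account for them; of the wider list the rule names called genes and the 3 with the lowest p. Alternatives were pseudocounts of 0.1 and 10, no filter, a mean of at least 20, equal library totals, fits on 6 libraries, eBayes without trend or robust, a replicate block, and each library left out in turn. All 46 members matched RefSeq by Entrez ID, and promoters (GRCm38.p6) are RefSeq's. Promoters of Bop1, Rrp12, Fbl, Rrs1, Tcof1 and Npm1 were not used here.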

Additional observations from a re-analysis of the deposited data

Results flagged for a closer look

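The response to imiquimod differed between genotypes for Ncl, by the interaction test. Its log2 interaction was -2.21 ± 0.51 (SE; limma adjusted p = 0.0110), with a fold change of -0.24 in NF-kB1-deficient cells and 1.96 in wild-type cells.

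Tcof1 moved in opposite directions in the genotypes. All 3 NF-kB1-deficient imiquimod libraries lay above all NF-kB1-deficient sham libraries, and all 3 wild-type imiquimod libraries lay below all wild-type sham libraries. The interaction was 4.01 ± 1.68 on the log2 scale and did not pass the test (SE; limma adjusted p = 0.337). Tcof1 passed the filter only through wild-type sham, so the wild-type difference was bound to lean this way.

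No outlier test was made within groups of 3 libraries; calls that rest on single libraries are given with the results above.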

How the results depend on the processing

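At 20497 to 69446 estimated reads a library, 36 of the 46 genes were too low to test, and fold changes of the 10 tested members had a median SE of 1.11, so that changes of low genes had to be large to be called. In wild-type cells 3 members were called under imiquimod; without trend and robust moderation 1 was (Rrs1), and leaving out single libraries gave 2 to 3. For NF-kB1 deficient against wild type under imiquimod (1 called), 0 members were called with no filter, with equal totals and without trend and robust moderation, 2 (Ncl and Npm1) in the fit on 6 libraries, and 0 to 1 without single libraries. For the interaction (1 called), 0 were called with no filter and without trend and robust moderation, and 0 to 1 without single libraries. With a minimum mean of 20 only Ncl and Npm1 remained. The summed value of the members in wild-type imiquimod replicate 3 was 491 with equal totals, against 573 as deposited.

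Equal totals put the median of all genes at -0.19 in the wild-type response (-0.07 as deposited), at 0.32 between the genotypes under imiquimod (0.13) and at 0.38 in the interaction (0.24). Over all genes 26 were called higher and 25 lower in the wild-type response, 19 and 29 with equal totals, and 47 and 25 with a pseudocount of 10. Between genotypes under imiquimod 20 were higher and 8 lower, 25 and 5 with equal totals, 11 and 17 with a pseudocount of 10, and 5 and 12 on 6 libraries. Calls in the wild-type response numbered 26 with a pseudocount of 0.1, 11 with no filter, 28 on 6 libraries, 18 without trend and robust moderation, 23 without wild-type sham replicate 3 and 24 without wild-type imiquimod replicate 1. Between genotypes under imiquimod there were 3 with no filter, 0 without trend and robust moderation, 10, 4 and 9 without NF-kB1-deficient imiquimod replicates 1, 2 and 3, 18 without NF-kB1-deficient sham replicate 1 or wild-type imiquimod replicate 1, and 42 without wild-type imiquimod replicate 2. The interaction had 7 calls, 1 with no filter, 0 without trend and robust moderation and 2 to 12 without single libraries.

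Some uncalled fold changes, of 1.17 or less in size, changed sign. With a pseudocount of 0.1, Wdr43 was at -0.76 between genotypes under sham and at 0.11 in the interaction. With a pseudocount of 10, Rrs1 was at -0.031 for imiquimod in NF-kB1-deficient cells and Dkc1 at -0.046 between genotypes under imiquimod. With equal totals the interaction of Gnl3 was 0.0075. Without single libraries, the range for imiquimod in wild-type cells was -0.75 to 1.88 for Dkc1. For imiquimod in NF-kB1-deficient cells it was -0.69 to 0.70 for Rrs1, -0.17 to 0.9999 for Nop58, -1.41 to 0.19 for Heatr1 and -0.41 to 1.32 for Wdr43. Between genotypes under imiquimod it was -0.85 to 0.015 for Wdr43, -1.40 to 0.047 for Gnl3 and -0.86 to 1.09 for Dkc1. Between genotypes under sham it was -0.37 to 0.99 for Nop58, -0.043 to 1.81 for Heatr1, -0.35 to 0.96 for Npm1, -0.50 to 1.23 for Wdr43, -1.27 to 0.61 for Gnl3 and -2.47 to 0.16 for Dkc1. In the interaction it was -1.09 to 0.78 for Gnl3 and -0.026 to 2.61 for Dkc1. The cause of these changes was not tested. Of the other alternative values of single genes, 891 kept their direction and their side of the threshold, 21 lost a call and 2 gained one.

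The labels do not say whether replicate numbers pair the libraries. Deviations of same-numbered libraries from their group means correlated at -0.00983 to 0.0609. Most tested genes are low at this depth, so these correlations cannot decide whether libraries are paired. With the replicate block, 3, 0, 1, 0 and 1 members were called in the 5 comparisons, as without it, and Ncl in the wild-type response had an adjusted limma p of 2.9e-05.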
